A study of Homo sapiens with 4 samples.

Results

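Heat shock chaperones are proteins that hold, fold and refold other proteins, and many of them are made in larger amounts when proteins unfold. In the cytosol the Hsp70 and Hsp90 ATPases do this work with co-chaperones that load them with client proteins and reset their nucleotide state, and heat shock factor 1 (HSF1) switches many of their genes on. In the mitochondrial matrix a dedicated Hsp70 pulls in and folds imported proteins and passes some of them to the chamber formed by Hsp60 and its lid Hsp10. The endoplasmic reticulum (ER) has its own Hsp70, BiP, which is a main target of the unfolded protein response.

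The set described here is the main heat shock chaperones of the cytosol and the mitochondria. It was chosen by name from 10 listed genes, and a gene counted as measured where a probe set carried its symbol and no other. This gave 9 genes of the 22411 on the array, 6 cytosolic (HSPA1A, HSP90AA1, HSP90AB1, DNAJB1, HSPH1 and BAG3) and 3 mitochondrial (HSPD1, HSPE1 and HSPA9). HSPA8, the constitutive cytosolic Hsp70, was not used because its only probe set carries further symbols.

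The cells were HCT116, an established human colon cancer line. One group had been transiently transfected with a plasmid that expresses PRSS8, which encodes the membrane-anchored serine protease prostasin, and the other with the vector control. There were 2 arrays per group, numbered replicate 1 and replicate 2 and called biological replicates in the labels, and no time of collection is given in the sources used here. Values are log2 levels per probe set from Affymetrix arrays, and a difference is always PRSS8 minus control on that scale. Transient transfection gives a mixture of cells with and without the plasmid, and the arrays measured that mixture, so a change in some cells and a smaller change in all cells cannot be told apart.

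PRSS8 itself stood at 18.55 and 18.07 on the PRSS8 arrays, against 10.45 and 11.18 on the control arrays (replicates 1 and 2). On each PRSS8 array it lay 1.38 below the highest value of that array. The arrays resembled each other by replicate number more than by group, with Pearson's r across genes of 0.996 within number 1 and 0.989 within number 2 but 0.934 between the PRSS8 arrays and 0.930 between the control arrays. Genes are not independent replicates, and these r values are descriptions. Differences are therefore given within each number as well as over all 4 arrays. Of 8 markers of an epithelial colon line, EPCAM, KRT8, KRT18, KRT19 and CDH1 stood between 7.95 and 15.05 on all arrays, while VIL1, CDX1 and CDX2 stood between 3.25 and 4.03, below the median of all genes (4.22). Of 9 markers of blood, stromal and endothelial cells, 8 lay between 3.12 and 4.03 on every array, and DCN reached 5.13 on the replicate 2 control array.

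The promoters of these genes are shown first, because heat shock genes and ER chaperone genes are known to answer to different elements. A heat shock element is built of GAA units in alternating orientation, and it was searched as GAANNTTC or TTCNNGAA (2 units, each its own reverse complement) and as GAANNTTCNNGAA or its reverse complement TTCNNGAANNTTC (3 units). Overlapping matches were counted, and each 3-unit match holds 2 of the 2-unit matches. The ER stress element was searched as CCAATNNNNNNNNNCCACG on both strands, and every match to it also holds the CCAAT box. Windows run from 250 bases before to 50 bases after an annotated start, from RefSeq on GRCh38.p14, and all 9 members matched by symbol, with 15 windows. The 2-unit form was in 7 of the 15 windows and in at least 1 window of 6 of the 9 members (HSPA1A, HSP90AA1, HSP90AB1, DNAJB1, HSPD1 and HSPA9), and it was in 13.5% of all 35116 windows. The 3-unit form was in windows of HSP90AA1, HSP90AB1 and HSPD1 and in 0.49% of all windows. No window of a member held the ER stress element, which was in 0.0769% of all windows, among them that of HSPA5, the gene of BiP. For BAG3, HSPH1 and HSPE1 these letters were not in the windows, which says nothing of other positions or spacings. A match is a description of letters and not a site of binding.

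The windows below are those of HSPA1A, the inducible Hsp70 gene, and of the 3 members with the 3-unit form, and for comparison that of HSPA5. Capitals mark the matches to the 2-unit form in the members and to the ER stress element in HSPA5. The windows lie at chr6:31815293-31815592 (plus strand) for HSPA1A, chr14:102086995-102087294 (minus strand) for HSP90AA1, chr6:44247693-44247992 (plus strand) for HSP90AB1, chr2:197499791-197500090 (minus strand) for HSPD1 and chr9:125241294-125241593 (minus strand) for HSPA5. HSP90AA1, HSP90AB1 and HSPD1 have further annotated starts whose windows hold no match.
HSPA1A: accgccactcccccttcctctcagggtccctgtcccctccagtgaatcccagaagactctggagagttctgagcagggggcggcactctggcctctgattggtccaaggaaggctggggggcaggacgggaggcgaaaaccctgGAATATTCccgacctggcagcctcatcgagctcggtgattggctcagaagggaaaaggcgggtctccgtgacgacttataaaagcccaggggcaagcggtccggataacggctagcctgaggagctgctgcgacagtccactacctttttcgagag
HSP90AA1: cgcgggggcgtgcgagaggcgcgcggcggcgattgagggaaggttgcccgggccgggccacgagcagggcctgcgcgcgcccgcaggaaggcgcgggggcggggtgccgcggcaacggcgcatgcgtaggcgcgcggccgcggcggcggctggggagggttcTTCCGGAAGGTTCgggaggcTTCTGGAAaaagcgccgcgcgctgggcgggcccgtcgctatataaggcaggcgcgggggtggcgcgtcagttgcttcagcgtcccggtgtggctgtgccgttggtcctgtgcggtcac
HSP90AB1: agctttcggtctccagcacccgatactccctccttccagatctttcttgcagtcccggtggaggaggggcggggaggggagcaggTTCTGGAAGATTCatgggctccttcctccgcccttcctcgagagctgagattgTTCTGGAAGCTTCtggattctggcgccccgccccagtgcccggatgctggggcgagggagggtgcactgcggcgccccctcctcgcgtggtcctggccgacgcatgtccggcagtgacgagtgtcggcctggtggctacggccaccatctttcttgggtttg
HSPD1: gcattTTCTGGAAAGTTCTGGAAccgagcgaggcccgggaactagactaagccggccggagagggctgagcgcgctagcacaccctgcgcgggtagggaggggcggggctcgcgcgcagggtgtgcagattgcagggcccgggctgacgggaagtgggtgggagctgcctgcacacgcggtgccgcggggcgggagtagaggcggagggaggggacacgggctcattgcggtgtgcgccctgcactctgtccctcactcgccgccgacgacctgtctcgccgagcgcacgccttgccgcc
HSPA5: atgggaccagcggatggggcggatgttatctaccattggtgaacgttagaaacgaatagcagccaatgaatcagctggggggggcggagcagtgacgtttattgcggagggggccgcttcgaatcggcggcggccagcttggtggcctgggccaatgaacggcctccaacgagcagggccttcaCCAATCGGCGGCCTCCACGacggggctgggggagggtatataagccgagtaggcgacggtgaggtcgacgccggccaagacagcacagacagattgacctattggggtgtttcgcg

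The comparison asks whether transcripts of the cytosolic and mitochondrial chaperones differ between HCT116 cells with the PRSS8 plasmid and those with the vector. No member passed the test, and the differences lay between -0.34 (HSPA1A) and 0.39 (HSP90AA1). The cytosolic members had a median difference of 0.03 and the mitochondrial members of 0.26, where all genes had a median of 0.00 and well-expressed genes (mean over the 4 arrays of 6 or more, 5788 genes) a median of 0.10. In limma, 0 of 9 members passed an adjusted p under 0.05 in either direction, as did 0.0% of all genes, and 0 members had an unadjusted p under 0.05, as did 0.187% of all genes (42 of 22411). Each member had an adjusted p of 1.0 in limma. PRSS8 itself, with a difference of 7.49, did not pass the threshold either, so not passing tells little about the members. The intervals are wide, and a p above the threshold does not show that a gene did not differ. They come from a fit without the replicate number, so differences between the numbers widen them. SEs of the members ran from 0.30 (HSP90AB1) to 1.62 (HSPH1) in that fit. With the replicate number as a block they ran from 0.19 (BAG3) to 0.32 (HSP90AA1), and no gene passed with the block either.

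**Figure D1:**
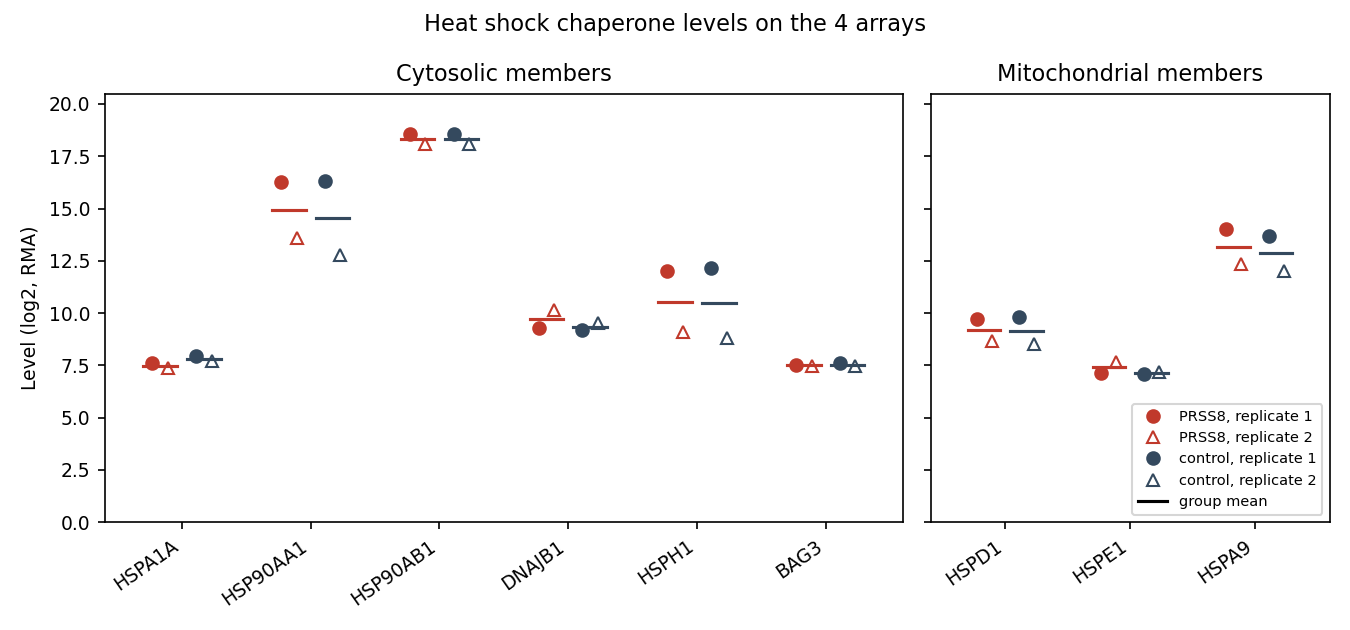
Levels (log2) of the 6 cytosolic and 3 mitochondrial members on each array, with PRSS8 arrays in red to the left of control arrays in dark blue, circles for replicate 1, triangles for replicate 2 and bars for group means. Between replicate numbers HSP90AA1 lies 2.71 (PRSS8) and 3.57 (control) apart and HSPH1 2.93 and 3.36. The group means of each gene lie within 0.39 of each other.

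Among the cytosolic Hsp70 genes, HSPA1A encodes the stress-inducible form. It stood at 7.61 and 7.36 on the PRSS8 arrays, against 7.95 and 7.70 on the control arrays (replicates 1 and 2). Both PRSS8 arrays were below both control arrays, with a gap of 0.09 between the closest arrays of the groups. After quantile normalization or median centring the groups overlapped. The difference was -0.34 within replicate 1 and -0.34 within replicate 2, or 0.791-fold in each, and the means were 7.48 ± 0.18 and 7.82 ± 0.18 for PRSS8 and control (SD, n = 2 each). In limma the difference was -0.34 (SE 0.53, 95% interval -1.71 to 1.03, adjusted p = 1.0). HSPA1A has 4 probe sets with this symbol alone, whose names place them on alternative haplotypes of chromosome 6. These stand for the same gene and are not independent measurements. Over them the difference ran from -0.34 to -0.29 within replicate 1 and from -0.36 to -0.22 within replicate 2. Its neighbour HSPA1B is nearly identical in sequence, 6 further probe sets carry both symbols and were not used, and signal from the genes cannot be told apart with certainty.

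HSPH1 encodes Hsp110, which recharges Hsp70 with ATP and helps it take aggregates apart. It stood at 12.02 and 9.09 on the PRSS8 arrays, against 12.17 and 8.81 on the control arrays. The groups overlapped, and both replicate 1 arrays lay 2.93 to 3.36 above the replicate 2 array of the same group. The difference was -0.15 within replicate 1 and 0.27 within replicate 2, and 0.06 overall (SE 1.62 in limma). BAG3, a nucleotide exchange factor that links Hsp70 clients to autophagy, stood at 7.51 and 7.48 on the PRSS8 arrays, against 7.60 and 7.48 on the control arrays. Its 4 arrays lay closest together of the 9 members, with differences of -0.09 and -0.01 within replicates 1 and 2 and -0.05 overall (SE 0.50, interval -1.35 to 1.25).

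DNAJB1, the Hsp40 that delivers clients to Hsp70 and stimulates its ATPase, stood at 9.30 and 10.17 on the PRSS8 arrays, against 9.20 and 9.51 on the control arrays. The replicate 2 PRSS8 array was the highest, and the replicate 1 PRSS8 array lay between the control arrays. The difference was 0.10 within replicate 1 (1.07-fold) and 0.66 within replicate 2 (1.58-fold), and 0.38 overall (SE 0.76). DNAJB1 was the only cytosolic member higher in both numbers.

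The cytosolic Hsp90 genes had unlike spreads over the arrays. HSP90AA1, the form whose gene responds more strongly to stress, stood at 16.28 and 13.57 on the PRSS8 arrays, against 16.32 and 12.76 on the control arrays. Within replicate 1 its difference was -0.05 (0.969-fold) and within replicate 2 it was 0.82 (1.76-fold), the largest within-number difference of any member. The overall difference was 0.39 (SE 1.53, interval -3.60 to 4.37), and the control arrays alone were 3.57 apart. HSP90AB1, the constitutive form, stood at 18.56 and 18.08 on the PRSS8 arrays, against 18.56 and 18.07 on the control arrays. Its differences were 0.00 and 0.01 within replicates 1 and 2, and 0.01 overall (SE 0.30), with the narrowest interval of the members, -0.76 to 0.78. On each of the 4 arrays HSP90AB1 lay 1.37 below the highest value of the array, so its level is close to the top of the measured range. PRSS8 lay 1.38 below the highest value on both PRSS8 arrays, as did HSPA5 on the replicate 1 PRSS8 array. Whether signal was compressed there was not tested, so the small differences and narrow interval of HSP90AB1 need not describe its transcript.

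Processed pseudogenes of these genes could share probes with them. RefSeq lists 5 for HSP90AA1, of which HSP90AA4P and HSP90AA6P were measured here, and 6 for HSP90AB1, of which 3 were measured (HSP90AB2P, HSP90AB3P and HSP90AB4P). HSP90AA4P stood at 7.66 and 5.0 on the PRSS8 arrays, against 7.76 and 4.43 on the control arrays, which is lower on the replicate 2 arrays by 2.66 (PRSS8) and 3.33 (control), where HSP90AA1 was lower by 2.71 and 3.57. HSP90AA6P was lower on them by 1.22 (PRSS8) and 1.27 (control). HSP90AB3P stood at 12.28 and 11.6 on the PRSS8 arrays, against 12.07 and 11.18 on the control arrays, and the other two lay between 3.67 and 4.72. RefSeq also lists 22 pseudogenes for HSPD1 and 28 for HSPE1, of which none was measured by a probe set of 1 symbol.

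Of the mitochondrial members, HSPA9 encodes mortalin, the matrix Hsp70 that draws proteins through the inner membrane. It stood at 14.01 and 12.34 on the PRSS8 arrays, against 13.70 and 12.00 on the control arrays. Its differences were alike in both numbers, 0.31 within replicate 1 and 0.34 within replicate 2 (1.24-fold and 1.26-fold), although the groups overlapped because the numbers were 1.67 (PRSS8) and 1.70 (control) apart. Overall the difference was 0.33 (SE 1.0, interval -2.29 to 2.94).

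HSPD1 and HSPE1 encode Hsp60 and Hsp10, the chamber and the lid of the matrix chaperonin. The genes lie head to head on chromosome 2, and in RefSeq on GRCh38.p14 there are 104 bases between the start of HSPE1 and the nearest start of HSPD1. HSPD1 stood at 9.72 and 8.67 on the PRSS8 arrays, against 9.81 and 8.5 on the control arrays, with differences of -0.09 and 0.16 within replicates 1 and 2 and 0.04 overall (SE 0.87). HSPE1 stood at 7.15 and 7.67 on the PRSS8 arrays, against 7.10 and 7.20 on the control arrays, with differences of 0.05 and 0.47 (1.03-fold and 1.39-fold) and 0.26 overall (SE 0.50). The neighbours ran opposite ways between replicate numbers. HSPD1 was higher on the replicate 1 arrays by 1.05 (PRSS8) and 1.31 (control), whereas HSPE1 was lower on them by 0.53 and 0.10.

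Counted without a test, 3 of 9 members were higher in both numbers (DNAJB1, HSPE1 and HSPA9), 2 were lower in both (HSPA1A and BAG3) and 4 took opposite directions or were at 0.00 in one. Among all genes 26.0% were higher in both numbers and 24.5% lower, and among the well-expressed genes, to which all members belong, the shares were 38.0% and 15.0%. With a difference of at least 0.1 required in both numbers, HSPA9 was the one member higher and HSPA1A the one lower, against 22.9% and 7.24% of well-expressed genes (10.4% and 7.19% of all genes). Both PRSS8 arrays lay above both control arrays in 0 members, against 5.53% of all genes and 6.12% of well-expressed ones, and below them in 1 member (HSPA1A), against 5.56% of all genes and 2.21% of well-expressed ones. A gap of at least 1.5-fold between the groups was found in 0 members, against 0.0714% of all genes above and 0.0357% below. These counts stay near the background and show nothing particular to the members.

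**Figure D2:**
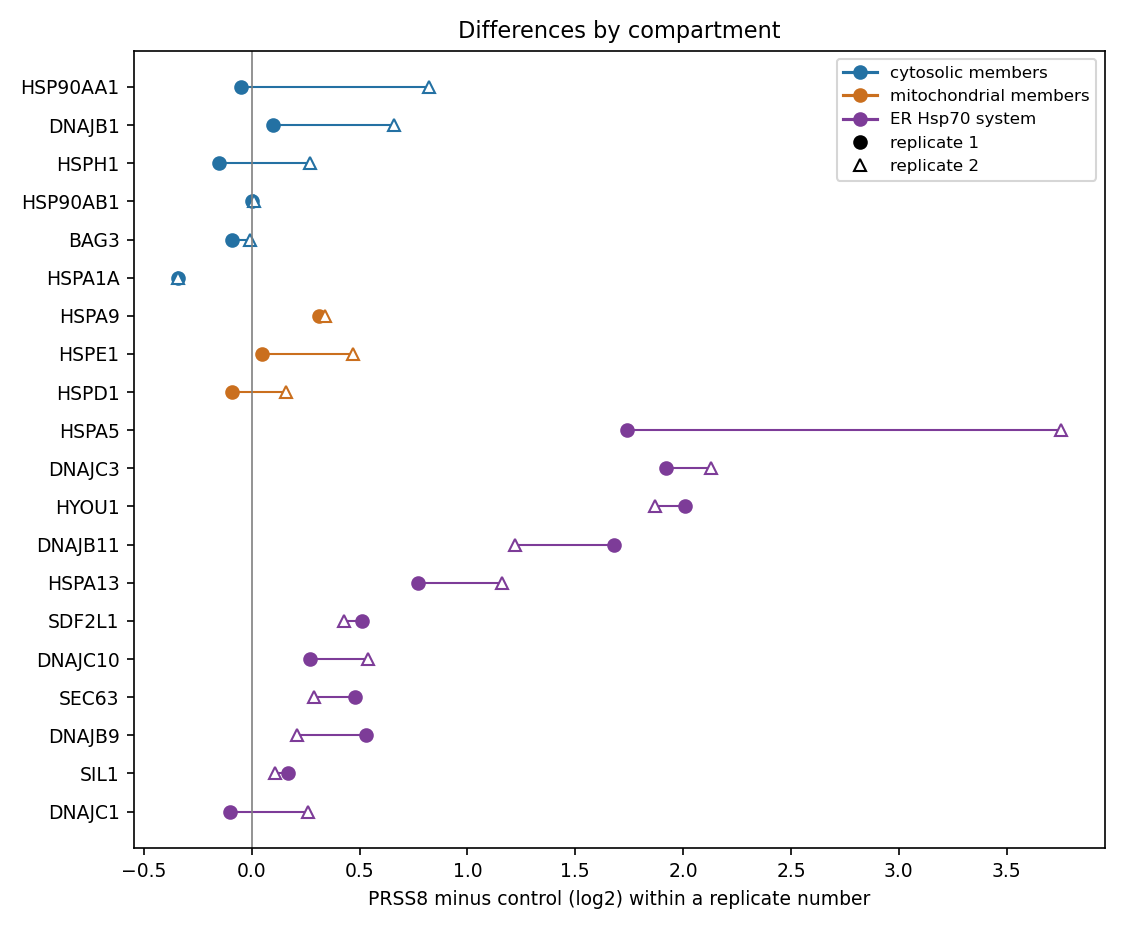
PRSS8 minus control (log2) within replicate 1 (filled circles) and within replicate 2 (open triangles) for each cytosolic member, mitochondrial member and gene of the ER Hsp70 system, with a line joining the 2 values of a gene. The members lie between -0.34 and 0.82, and HSPA5, HYOU1, DNAJB11 and DNAJC3 lie at 1.22 or above in both numbers.

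With its sign, the difference was more positive within replicate 2 than within replicate 1 for 8 of 9 members, by 0.01 (HSP90AB1) to 0.86 (HSP90AA1), and HSPA1A was the exception. For BAG3 this means a negative difference that was smaller in size. The same direction was found in 76.7% of well-expressed genes (53.1% of all genes). The member medians were -0.05 within replicate 1 and 0.27 within replicate 2, beside -0.02 and 0.22 for genes at that level. By compartment they were -0.07 and 0.14 for the cytosolic members and 0.05 and 0.34 for the mitochondrial members. With 1 array per group within a number, the difference between numbers has no test.

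Most members differed more between replicate numbers than between groups. For 8 of 9 members the difference between numbers, averaged over the groups, was larger in size than the difference between groups, and HSPA1A was again the exception. The same held for 19014 of the 22411 genes. Both replicate 1 arrays lay above both replicate 2 arrays in 6 members, against 55.4% of well-expressed genes (25.2% of all genes), and below them in DNAJB1 and HSPE1, against 29.7% of genes at that level (54.0% of all genes). What the numbers stand for beyond biological replicates is not given in the labels.

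**Figure D3:**
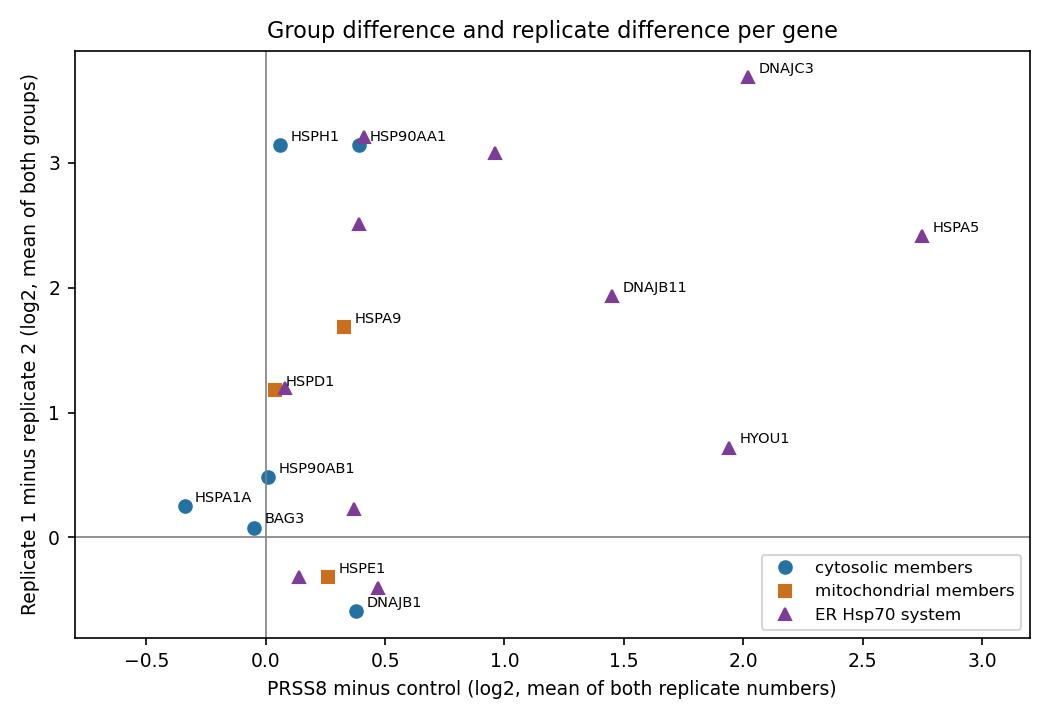
Each point is a gene, with PRSS8 minus control (log2, mean of both numbers) on the horizontal axis and replicate 1 minus replicate 2 (log2, mean of both groups) on the vertical axis. The cytosolic and mitochondrial members spread along the vertical axis, with HSPH1 and HSP90AA1 at the top, and stay within -0.34 and 0.39 on the horizontal axis, while 4 labelled ER genes lie to the right of 1.

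The compartments were also set against each other. The median shift of the mitochondrial members from their own 4-array means, minus that of the cytosolic members, was 0.43 and -0.24 on the PRSS8 arrays and 0.37 and -0.53 on the control arrays (replicates 1 and 2). The groups overlapped and differed by 0.17 (0.06 within replicate 1 and 0.29 within replicate 2, exact two-sided permutation p = 0.667). The smallest p that such a test can reach with 2 arrays in each group is 0.333.

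The ER Hsp70 system was set beside the members as the nearest relative in another compartment. It comprised 11 measured genes of 12 listed, and HSP90B1, the ER Hsp90, was not used because no probe set carried its symbol alone. Of the 11, 10 were higher in both numbers and 4 had both PRSS8 arrays above both control arrays, with a median difference of 0.47, where 26.0% of all genes were higher in both numbers and 5.53% had such arrays (38.0% and 6.12% of well-expressed genes). HSPA5 stood at 18.55 and 17.13 on the PRSS8 arrays, against 16.81 and 13.38 on the control arrays, a difference of 2.75 (SE 1.24, interval -0.49 to 5.98, adjusted p = 1.0 in limma) with 1.74 and 3.75 within replicates 1 and 2. Its replicate 1 PRSS8 array lay 1.38 below the highest value of that array, close to the distance of HSP90AB1 (1.37), and whether signal was compressed there was not tested. HYOU1, the ER Hsp110, stood at 12.71 and 11.92 on the PRSS8 arrays, against 10.69 and 10.04 on the control arrays, whereas its cytosolic relative HSPH1 differed by 0.06. DNAJC3 and DNAJB11, co-chaperones of BiP, differed by 2.02 (SE 1.80) and 1.45 (SE 1.05). The median shift of the ER genes minus that of the members was 1.26 and -0.06 on the PRSS8 arrays and 0.04 and -1.15 on the control arrays. It differed by 1.15 between the groups, with 1.21 within replicate 1 and 1.09 within replicate 2. The groups overlapped because of the replicate number (exact two-sided permutation p = 0.667). That test ignores the numbers and cannot reach a p below 0.333, so it cannot decide whether the groups differ. No gene of the ER list passed in limma (adjusted p = 1.0 for each).

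The wider heat shock program gave similar values. Of 18 measured genes among 20 other heat shock factor targets and small heat shock proteins, 0 passed in limma, and the median difference was 0.03. In both numbers 5 were higher and 4 lower, against 26.0% and 24.5% of all genes (38.0% and 15.0% of well-expressed genes). Among those of the list with a mean level of 6 or more, 3 were higher in both numbers and the median was again 0.03. CHORDC1, an Hsp90 co-chaperone, had the largest difference, 0.32 (SE 1.81), with 0.08 and 0.56 within replicates 1 and 2. DNAJA1, another Hsp40 of the cytosol, differed by 0.24 (SE 1.28), STIP1, the adaptor that joins Hsp70 to Hsp90, by 0.22 (SE 0.64), and the small heat shock protein gene HSPB8 by 0.20 (SE 0.18). HSPB8 stood at 4.36 and 4.68 on the PRSS8 arrays, against 4.28 and 4.35 on the control arrays, near the median of all genes (4.22). HSPA6, a strictly inducible Hsp70, stood at 4.31 and 3.94 on the PRSS8 arrays, against 4.0 and 3.94 on the control arrays, near the median of all genes. HSPB1 (Hsp27) had opposite differences of -0.42 and 0.49 within replicates 1 and 2.

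Of the regulators, HSF1 stood at 6.18 and 7.28 on the PRSS8 arrays, against 6.42 and 7.11 on the control arrays, with differences of -0.24 and 0.17 within the numbers. HSBP1, a small protein that binds HSF1, stood at 10.68 and 10.82 on the PRSS8 arrays, against 10.61 and 10.13 on the control arrays. Its PRSS8 arrays were both above its control arrays, by 0.07 at the closest, with a difference of 0.38 (SE 0.76, adjusted p = 1.0 in limma). Such an order of the arrays was found in 5.53% of all genes and 6.12% of well-expressed ones. HSF2 and HSF4 had no probe set of their own symbol alone.

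The 19 measured genes listed as co-chaperones of cytosolic Hsp70 and Hsp90 had a median difference of 0.12, with 0 passing in limma. The list includes AHSA2P, a pseudogene by its symbol. In both numbers 9 were higher and 2 lower, against 26.0% and 24.5% of all genes (38.0% and 15.0% of well-expressed genes). Among those of the list with a mean level of 6 or more, 7 were higher in both numbers. DNAJA2, an Hsp40, differed by 0.49 (SE 0.93), with 0.28 and 0.70 within replicates 1 and 2. DNAJC7 differed by 0.37 (SE 1.26), PTGES3, the Hsp90 co-chaperone p23, by 0.32 (SE 0.81) and HSPA14, a ribosome-associated Hsp70, by 0.32 (SE 0.58). The TRiC chaperonin, the cytosolic counterpart of Hsp60 that folds actin and tubulin, had 7 measured subunits of 8 and a median difference of 0.35. All 7 had a more positive difference within replicate 2, as did 76.7% of well-expressed genes. Their medians were 0.01 and 0.67 within replicates 1 and 2, beside -0.02 and 0.22 for well-expressed genes. For CCT5 the values were nearly equal, 0.26 and 0.27. CCT2 stood at 14.0 and 12.45 on the PRSS8 arrays, against 13.99 and 11.04 on the control arrays, a difference of 0.01 and 1.41 within the numbers. Prefoldin, which hands unfolded chains to TRiC, had a median of 0.19 over its 6 subunits. In both numbers 3 were higher and 1 lower, against 26.0% and 24.5% of all genes (38.0% and 15.0% of well-expressed genes). The lower subunit was PFDN5, with -0.13 and -0.12 within replicates 1 and 2. VBP1 had the largest difference, 0.40 (SE 0.76), with overlapping groups. PFDN1 stood at 7.07 and 7.05 on the PRSS8 arrays, against 6.76 and 6.70 on the control arrays, so the groups did not overlap. PFDN2 did not overlap either, with differences of 0.51 and 0.15 within replicates 1 and 2. These were 2 of 6 subunits, where 5.53% of all genes and 6.12% of well-expressed ones had both PRSS8 arrays above both control arrays.

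**Figure D4:**
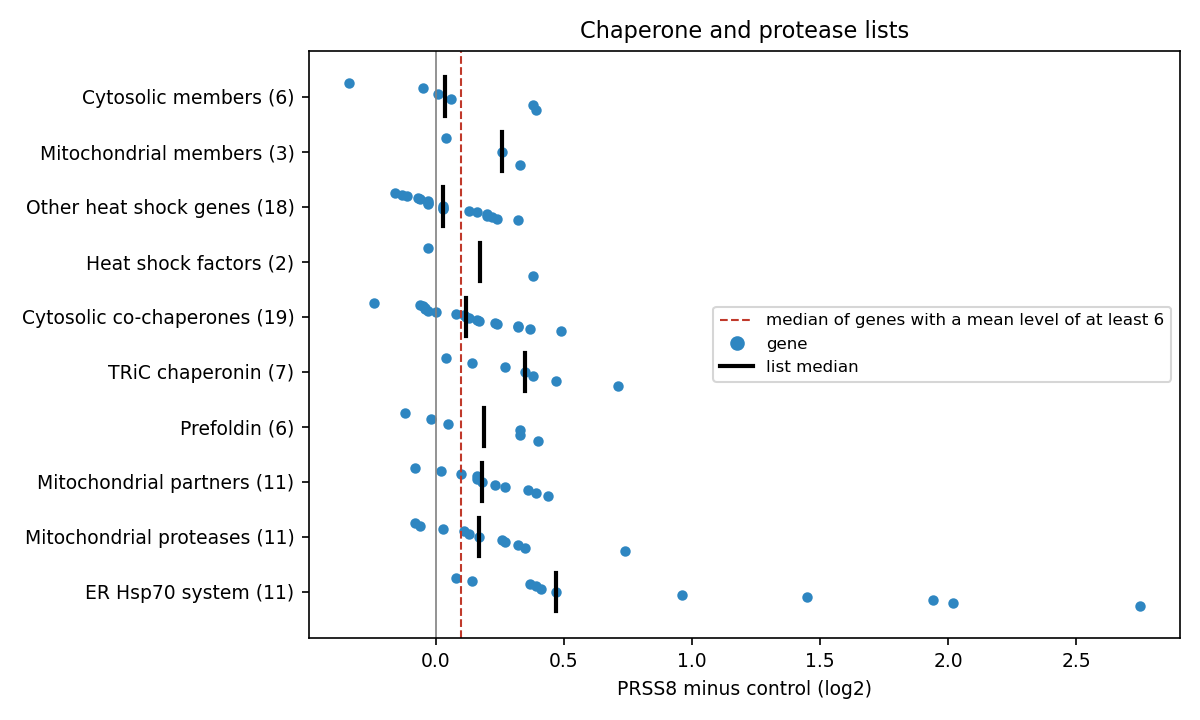
PRSS8 minus control (log2) for each gene (points) of the cytosolic members, the mitochondrial members and 8 other lists, with list medians as black bars, the number of genes in parentheses and a dashed line at the median of well-expressed genes (0.10). List medians run from 0.03 (cytosolic members and other heat shock genes) to 0.47 (ER Hsp70 system).

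A list of 11 measured mitochondrial genes held partners of the matrix Hsp70, the import motor, the matrix Hsp90 and also CLPB. Their median difference was 0.18, with 0 passing in limma. In both numbers 6 were higher and 1 lower, against 26.0% and 24.5% of all genes (38.0% and 15.0% of well-expressed genes). DNAJA3, the Hsp40 that works with HSPA9, stood at 8.59 and 8.73 on the PRSS8 arrays, against 8.31 and 8.24 on the control arrays. Its groups did not overlap, and it differed by 0.28 and 0.49 within replicates 1 and 2. Both PRSS8 arrays lay above both control arrays in 2 of these 11 genes, against 5.53% of all genes and 6.12% of well-expressed ones. The nucleotide exchange factors of HSPA9, GRPEL1 and GRPEL2, differed by 0.27 (0.41 and 0.14 within the numbers) and 0.36 (0.47 and 0.24). TRAP1, the mitochondrial Hsp90, had opposite differences of -0.25 and 1.13. The 11 proteases and processing peptidases had a median of 0.17, with 0 passing in limma. In both numbers 4 were higher and 1 lower, beside the same shares of all and of well-expressed genes. YME1L1, a protease of the inner membrane, stood at 13.76 and 10.63 on the PRSS8 arrays, against 13.54 and 9.36 on the control arrays (0.22 and 1.27 within the numbers). LONP1, the matrix protease, differed by 0.13, and CLPP, the core of the other matrix protease, had opposite differences of -0.16 and 0.68.

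Among 5779 other well-expressed genes, the Euclidean distance was taken between a gene's profile (levels minus the gene's own mean) and the median profile of the members. That profile is a median taken array by array and need not resemble any single member. Closest to the median cytosolic profile were ETS2, RUFY1 and R3HDM2 (distances 0.045, 0.051 and 0.051). Within replicate 2 these genes differed by -0.15, -0.15 and -0.09. The cytosolic members themselves ran from -0.34 to 0.82 there, with a median of 0.14. Closest to the median mitochondrial profile were ATP1B1, KPNA5 and DIS3L (distances 0.056, 0.059 and 0.059). With 4 arrays such likeness is common, as 1095 genes lay within 0.5 of the cytosolic profile and 900 within 0.5 of the mitochondrial one.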

How the data were processed

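The 4 arrays (2 PRSS8, 2 control) were grouped by their labels. The authors deposited log2 levels per probe set, produced by RMA in Affymetrix Expression Console 1.3.1, per the submitters' processing notes. It is not stated whether all arrays went through it jointly. The highest value was 19.93 on both replicate 1 arrays, but 19.46 (PRSS8) and 19.44 (control) on the replicate 2 arrays. Medians over transcript clusters were 3.61 (PRSS8) and 3.60 (control) for replicate 1, and 3.86 and 3.92 for replicate 2. The cause was not tested. Depth has no meaning for arrays, and their number limits the precision.

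Of 70523 probe sets, 67528 were transcript clusters and 23781 of these had 1 symbol in GEO's platform annotation (1543 had several and were not used). Symbols were updated through Entrez identifiers (21497 probe sets) and unique older symbols (306), and the probe set with the highest mean stood for a gene, giving 22411 genes. Dim probe sets were kept. PRSS8 minus control was fitted over all genes with limma 3.58.1 in R 4.3.3 (eBayes with an intensity trend, two-sided, Benjamini-Hochberg adjustment, threshold 0.05, no block). A prior run on simulated data required only that median estimates lie close to the simulated differences. It set no condition on how many genes were called, so it says nothing of power or error rates. A t quantile of the fit to the real data gave the 95% intervals.

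The members and lists were chosen with earlier results of these data known. Genes named outside the members were, per list, up to 4 with the largest differences, with HSF1, HSPA5 and PRSS8. HSPA6, HSPB1, LONP1, CLPP, CCT5 and the pseudogenes of the Hsp90 genes were named after their values were seen. So was HSBP1, which the rule also selects. CLPB and AHSA2P were named to describe their lists. TIMM14 is an older name of the listed DNAJC19.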

Additional observations from a re-analysis of the deposited data

How the results depend on the processing

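Each member's difference was recomputed under 8 alternatives that keep all arrays and 4 that leave one out, and its adjusted p in limma was at least 0.96 in each. The block, the variance models and the level filter cannot change the estimate in this balanced design. Averaging probe sets turned 0 values. Under the 3 further normalizations 5 of 27 values turned, which were HSP90AB1 after cyclic loess (-0.087), HSPH1 after quantile normalization (-0.12) and cyclic loess (-0.047), and HSPD1 after the same (-0.14 and -0.048); the cause was not tested. Arrays left out also exchange replicate numbers between the groups, and 13 of 36 such values turned. Their ranges were -0.46 to -0.21 for HSPA1A, -1.40 to 2.17 for HSP90AA1, -0.24 to 0.25 for HSP90AB1, -0.055 to 0.81 for DNAJB1, -1.62 to 1.74 for HSPH1, -0.11 to 0.011 for BAG3, -0.62 to 0.69 for HSPD1, -0.002 to 0.52 for HSPE1 and -0.52 to 1.18 for HSPA9. The median ranged from -0.35 to 0.24 for the cytosolic and from -0.52 to 0.69 for the mitochondrial members, with the lowest values without control replicate 2 (for the cytosolic members equally without PRSS8 replicate 1) and the highest without control replicate 1. Over all genes 0 to 5 were higher and 0 to 59 lower with an array left out, the most without control replicate 2 (5) and control replicate 1 (59).

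Members lower in both numbers were 4 after quantile normalization and 1 after median centring. With differences of at least 0.1 there were 1 lower and 1 higher. Median centring put 1 member above both controls and 0 below, quantile normalization put 0 below, and a gap of at least 1.5-fold left 0 below. With the replicate block, 0 genes passed (1174 had an unadjusted p under 0.05), and HSPA1A had a difference of -0.34 (SE 0.20, adjusted p = 0.96). Deviations of same-numbered arrays from their group means correlated at 0.91 across genes, but with 2 numbers this does not settle a pairing. Among the lists, the ER median was 1.21 over genes with a mean level of 6 or more, against 0.47 over all its genes, and prefoldin was 0.33 under that limit. Quantile normalization lowered the medians to 0.07 for prefoldin (0.19 as deposited), 0.03 for mitochondrial proteases (0.17), 0.04 for co-chaperones (0.12), 0.17 for TRiC (0.35) and 0.14 for the mitochondrial members (0.26). Cyclic loess gave -0.07 for the cytosolic members (0.03 as deposited). Other heat shock genes higher in both numbers were 5 on the deposited values and 3 to 8 under the alternatives.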
